A study of Mus musculus with 15 samples.

Results

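The Hoxa cluster is a row of homeobox genes on mouse chromosome 6, and it was described here in sorted bone marrow progenitors that carried different alleles of Cebpa. Its members were the 9 genes Hoxa2, Hoxa3, Hoxa4, Hoxa5, Hoxa6, Hoxa7, Hoxa9, Hoxa10 and Hoxa11, each read by 1 probe set of a whole-transcript expression array, out of 19937 genes with a symbol of their own. RNA was measured on 15 arrays, 3 in each of 5 groups, all from female C57BL/6 mice that carried the Mx1Cre transgene and were taken 3 weeks after conditional knockout. Pre-granulocyte-macrophage progenitors (preGMs) came from cebpa +/+ mice, whose label spells the transgene Mx1Ce, and from cebpa fl/p30 mice. Granulocyte-macrophage progenitors (GMPs) came from cebpa fl/+, fl/BRM2 and fl/p30 mice. The p30 allele gives only the shorter C/EBPα protein, BRM2 carries a mutated basic region, and fl is a floxed allele that Cre removes, so after deletion fl/+ cells keep 1 normal allele, and fl/p30 and fl/BRM2 cells keep only the mutant one. The preGM control therefore had 2 normal alleles and the GMP control had 1, and stage and control genotype cannot be told apart wherever these controls are set against each other. Mx1 is an interferon-inducible promoter that acts in most blood cells and in other tissues, so deletion was not limited to the sorted cells. Both populations were sorted as lineage-negative, Sca1-negative, cKit-positive cells without CD150 and CD41, and the GMP gate took cells with FcgRII and the preGM gate cells without it or Endoglin. The preGM and GMP samples of fl/p30 mice came from the same 3 animals.

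Hox genes encode transcription factors that bind DNA through a homeodomain, usually together with partner proteins of the Pbx and Meis families. In blood formation the genes from the middle to the 5′ side of the Hoxa cluster, Hoxa9 above all, are active in stem cells and early progenitors and are shut down as cells mature, and Hoxa9 kept on together with Meis1 drives myeloid leukaemia. Trithorax-type proteins such as Kmt2a keep the cluster active and Polycomb proteins keep it silent. C/EBPα is the transcription factor that takes progenitors into the granulocyte-macrophage path, the step between the 2 sorted populations.

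The start regions of the 3 members with the widest differences below are shown, because C/EBPα, Hox and partner proteins act through DNA. Each is the RefSeq sequence of the 250 bases before the gene's start on the minus strand of GRCm38.p6, at chr6:52227371-52227620 for Hoxa9, chr6:52204588-52204837 for Hoxa5 and chr6:52218574-52218823 for Hoxa7. Capitals mark matches to any of 3 motifs searched on both strands, TTGCNNAA for C/EBP, TGATTNAT for a Pbx-Hox pair and TTTATG for Cdx.
Hoxa9: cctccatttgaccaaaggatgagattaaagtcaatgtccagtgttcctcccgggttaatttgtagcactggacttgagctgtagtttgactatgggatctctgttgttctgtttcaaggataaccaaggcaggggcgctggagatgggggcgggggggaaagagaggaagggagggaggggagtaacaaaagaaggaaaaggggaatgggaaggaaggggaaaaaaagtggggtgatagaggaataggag
Hoxa5: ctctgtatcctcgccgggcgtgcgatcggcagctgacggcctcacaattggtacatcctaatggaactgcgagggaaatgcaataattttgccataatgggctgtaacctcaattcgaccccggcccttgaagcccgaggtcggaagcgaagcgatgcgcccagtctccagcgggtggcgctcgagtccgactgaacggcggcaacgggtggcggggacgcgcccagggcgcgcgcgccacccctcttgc
Hoxa7: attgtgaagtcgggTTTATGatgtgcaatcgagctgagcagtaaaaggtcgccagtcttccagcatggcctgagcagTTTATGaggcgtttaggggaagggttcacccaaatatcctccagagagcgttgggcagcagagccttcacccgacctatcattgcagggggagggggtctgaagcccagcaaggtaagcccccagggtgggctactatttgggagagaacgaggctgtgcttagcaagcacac
The only capitals are 2 Cdx matches in Hoxa7, 236 and 173 bases before its start. TTTATG was found in 10.8% of 32851 windows of the same length, TTGCNNAA in 9.56% and TGATTNAT in 2.82%. Of the 8 members with a sequence, Hoxa2 held the only other match, ATCAATCA, the Pbx-Hox motif read on the opposite strand, 111 bases before its start. These letters were therefore missing from the Hoxa9 and Hoxa5 windows, which says nothing of sites elsewhere.

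Values are log2 intensities after RMA, and the array medians lay between 6.03 and 6.23. Array values of different probe sets cannot be ranked as amounts of RNA. Hoxa2, Hoxa3, Hoxa10 and Hoxa11 lay below 6.03 on every array, where a probe set near background compresses differences. Hoxa5 lay below 6.03 on every GMP array, so the same limit holds for its GMP values. The targeted gene, Cebpa, read 8.53 to 8.61 in preGM +/+, 8.90 to 9.28 in preGM fl/p30, 8.10 to 8.70 in GMP fl/+, 8.48 to 8.86 in GMP fl/BRM2 and 8.68 to 9.31 in GMP fl/p30. The place of its probes relative to the deleted part was not known, so this does not check deletion. Of 6 measured gate genes, 2 were called higher and 2 lower in GMP fl/+ than in preGM +/+. Fcgr2b, the FcgRII gene of the GMP gate, was higher by 1.48 ± 0.30 (SE; limma, adjusted p = 0.00992), and Fcgr3, a related Fc receptor, by 2.98 ± 0.20 (4.59e-06). Kit was lower (difference -0.59, adjusted p = 0.0329), although both gates took cKit-positive cells. Eng, the Endoglin gene, ran against its gate, with 7.45 ± 0.11 (SD) in the Endoglin-negative preGM +/+ cells and 6.71 ± 0.17 in GMP fl/+ (difference -0.74, adjusted p = 0.00639). Among GMPs, Fcgr2b differed from fl/+ by -1.07 with p30 (adjusted p = 0.051) and -1.05 with BRM2 (0.0903). Of the arrays, preGM +/+ replicate 3 carried high B lymphoid markers, with a mean log2 deviation, taken from each marker's mean over all arrays, of 2.08 over 9 markers against 0.31 and 0.42 in its group. The 3 fl/+ GMP arrays were the most unlike each other, with a root mean square within-group SD of 0.319 over all genes against 0.165 in preGM +/+.

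In preGMs, the Hoxa9 and Hoxa5 transcripts were lower in fl/p30 than in +/+ mice, and no member was called higher. No fl/+ preGMs were measured, so the p30 allele cannot be told apart here from the loss of normal alleles. Hoxa9, the cluster's chief blood gene, read 8.24, 7.86 and 7.70 in the 3 preGM +/+ arrays and 6.73, 7.08 and 6.47 in the 3 preGM fl/p30 arrays. Every p30 array lay below every control array. Hoxa9 fell by 1.18 ± 0.17 (SE) on the log2 scale, a 2.26-fold lower level, with a 95% interval of -1.55 to -0.81 and an adjusted p of 0.00336 (limma, Benjamini-Hochberg over all genes). Bulk RNA cannot tell fewer cells with the transcript from less transcript per cell. Hoxa5, which patterns the lung and the axial skeleton, read 6.85, 6.77 and 7.07 in preGM +/+ and 5.54, 6.44 and 5.84 in preGM fl/p30. The groups did not overlap, and replicates 1 and 3 of the p30 preGMs lay below the array medians while replicate 2 lay above them. Hoxa5 fell by 0.95 ± 0.18 (95% interval -1.34 to -0.56, adjusted p = 0.0177, limma).

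These were 2 of 9 members called lower, where 1.03% of all genes were called lower and 1.68% were called in either direction. The Hoxa9 call held in all 24 alternatives run for it, with adjusted p between 0.000367 and 0.0227. The Hoxa5 call did not: it ended in 5 of 15 runs that left out 1 array. Its adjusted p was 0.0672, 0.0556 and 0.0856 without preGM +/+ replicates 1, 2 and 3, and 0.0799 and 0.0905 without preGM fl/p30 replicates 1 and 3. Of the runs without a preGM array, only that without preGM fl/p30 replicate 2 kept the Hoxa5 call (adjusted p = 0.00232). Leaving out an array of a group not compared alters only the shared spread, here and in the counts of 15 runs below. Left out together, 4 arrays judged to stand apart (preGM +/+ replicate 3 and replicate 1 of preGM fl/p30, GMP fl/+ and GMP fl/p30) gave a further check chosen after the data were seen. Distance over all genes did not single out each of them. The root mean square distance from the other 2 arrays was 0.21 for preGM +/+ replicates 2 and 3. It was 0.43 and 0.42 for GMP fl/+ replicates 1 and 2. Without the 4 arrays Hoxa9 differed by -1.28 (adjusted p = 0.0204) and Hoxa5 differed by -0.67 (adjusted p = 0.149).

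The remaining 7 members did not pass. At an unadjusted limma p under 0.05 there were 6 of all 9 members, where 2794 of 19937 genes lay. Hoxa7, which like Hoxa9 is activated together with Meis1 in mouse myeloid leukaemias, read 6.73, 7.03 and 6.64 in the control preGMs and 6.54, 6.65 and 6.35 in the p30 preGMs. Its groups overlapped, and its difference was -0.29 (adjusted p = 0.314). Hoxa6 read 6.20 to 6.30 and 5.98 to 6.05 with no overlap, a difference of -0.25 (adjusted p = 0.317). Hoxa3, a gene of the pharyngeal region and thymus, also did not overlap, at a difference of -0.27. Hoxa4 differed by -0.26, Hoxa10, a regulator of uterus and blood progenitors, by -0.22, Hoxa2, a gene of the hindbrain and second branchial arch, by -0.13, and Hoxa11, a gene of limb, kidney and uterus, by -0.04. In all, 4 of 9 members had p30 arrays wholly below the controls, against 12.8% of all genes. The 9 estimates were all negative, as were 44.8% of all genes, and their median was -0.26 against 0.03 over all genes.

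Markers of several blood cell types also differed in this comparison, in both directions. The monocyte and dendritic markers had mean deviations of 0.48 to 0.90 in preGM +/+ and -0.93 to -0.42 in preGM fl/p30, with 3 of 7 measured markers called lower. The secondary granule and neutrophil markers went from 0.29 to 1.51 down to -1.33 to -1.01, with 2 of 7 called lower, and the primary granule and GMP markers from -0.21 to 0.10 down to -1.49 to -1.28, with 1 of 8 called lower. The stem and multipotent markers had 0.32 to 0.55 in the controls and 0.01 to 0.33 with p30, with 1 of 9 called lower. Several genes of that list also stand in the lists of partners, regulators and linked genes below. Erythroid markers went the other way, from -0.10 to 0.05 up to 0.35 to 0.48, with 0 of 6 called. Of the mast, basophil and eosinophil markers 1 of 6 was called higher, Cpa3 by 2.53 (limma, adjusted p = 0.00243), and none lower. Of the T and NK markers 1 of 7 was called higher and none lower. The part of any of these cells in the Hoxa9 and Hoxa5 values was not tested.

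**Figure D1:**
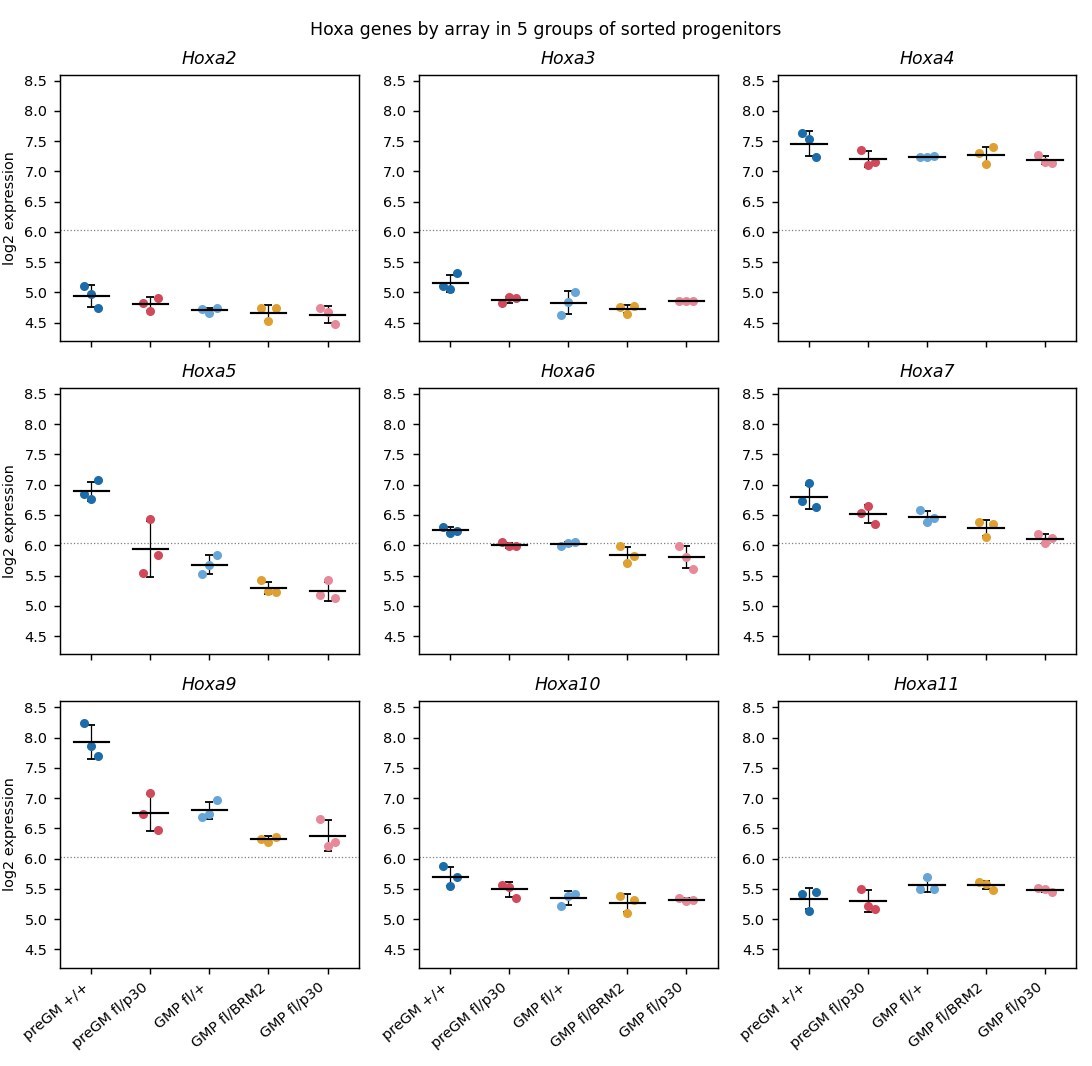
Log2 intensity of each Hoxa gene on every array, by group; points are arrays, the black bar is the group mean and the error bar is the SD, and the dotted line is the lowest array median, 6.03. Hoxa9 and Hoxa5 stand highest in the 3 preGM +/+ arrays, and Hoxa2, Hoxa3, Hoxa10 and Hoxa11 lie below the line throughout.

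Between control stages, the same 2 members were lower in GMPs. Hoxa9 read 6.69, 6.74 and 6.96 in GMP fl/+, and Hoxa5 read 5.52, 5.67 and 5.84. All of these lay below the lowest preGM +/+ array. Hoxa5 fell by 1.22 ± 0.18 (95% interval -1.61 to -0.82, adjusted p = 0.00192, limma), and Hoxa9 fell by 1.13 ± 0.17 (2.19-fold lower, 95% interval -1.50 to -0.76, adjusted p = 0.00202). These were 2 of 9 called lower, against 6.02% of all genes called lower and 10.2% called in either direction, and both calls held in every alternative run. This comparison and the one in preGMs share the preGM +/+ arrays, so their matching values are not separate evidence.

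Below those calls, several members were near the threshold. At an unadjusted limma p under 0.05 there were 6 of all 9 members and 31.7% of all genes. Hoxa10 differed by -0.36 (adjusted p = 0.0601), Hoxa3 by -0.33 (0.0668) and Hoxa7 by -0.33 (0.0942). Hoxa6 and Hoxa2 each differed by -0.23 and Hoxa4 by -0.22. Hoxa11 had the only positive estimate, 0.22, with an interval of -0.03 to 0.47. Without GMP fl/+ replicate 3, Hoxa3 passed (-0.42, adjusted p = 0.0447). Without the 4 arrays that stood apart, Hoxa7 passed (-0.46, 0.0442), where 25.4% of all genes did, and Hoxa3 differed by -0.15 (0.297) and Hoxa10 by -0.30 (0.14). Groups did not overlap for 8 members, against 34.0% of all genes, and Hoxa4 was the exception. The median over the 9 members was -0.33, and over all genes 0.08. Of the stem and multipotent markers, 4 of 9 were called lower in this comparison and of the primary granule and GMP markers 3 of 8 higher. Mast, basophil and eosinophil markers had 4 of 6 higher, erythroid markers 3 of 6 lower and B lymphoid markers 3 of 9 lower, among them Dntt, the lymphoid DNA polymerase, at -6.20 (adjusted p = 2.89e-08). The part of these cells in the members' values was not tested.

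**Figure D2:**
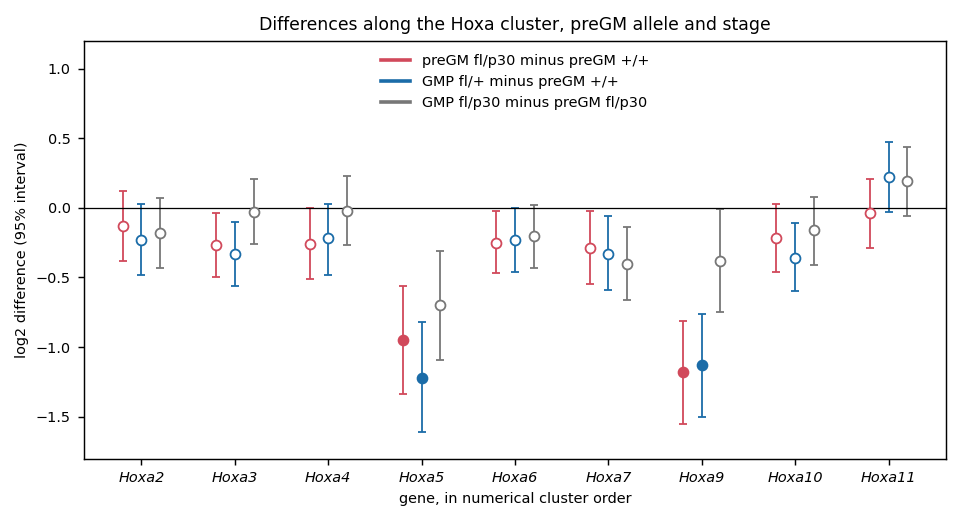
Log2 difference of each Hoxa gene, in cluster order, for the p30 against the control preGMs, the control stage step, and the p30 stage step; points are limma estimates, bars are 95% intervals, and filled points passed an adjusted p of 0.05. Hoxa5 and Hoxa9 are the filled points in the preGM comparison and in the control step, at -0.95 and -1.18 and at -1.22 and -1.13.

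In p30 mice no member was called between preGMs and GMPs. Hoxa9 read 6.66, 6.21 and 6.27 in GMP fl/p30, and Hoxa5 read 5.18, 5.42 and 5.13. The p30 GMP arrays overlapped the p30 preGM arrays for Hoxa9 and lay below them for Hoxa5. These Hoxa5 values in GMP fl/p30 lay below 6.03, where differences are compressed. Hoxa5 differed by -0.70 (95% interval -1.09 to -0.31, adjusted p = 0.115), Hoxa7 by -0.40 (-0.66 to -0.14, 0.167) and Hoxa9 by -0.38 (-0.75 to -0.01, 0.388). Hoxa5 and Hoxa7 lay lower with no overlap between stages, as did 7.72% of all genes. By limma 0.642% of all genes were called, and at an unadjusted p under 0.05 there were 3 members and 12.4% of all genes. With the animal as a random block, since the 2 samples of each p30 mouse are paired, Hoxa5 did pass (adjusted p = 0.0239), as did 3.42% of all genes, and Hoxa7 had an adjusted p of 0.0508. With the animal as a fixed block in the 6 arrays alone, neither passed, at 0.116 and 0.195. Hoxa5 also passed without preGM fl/p30 replicate 1 (-0.90, adjusted p = 0.0466).

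The difference between the p30 and control steps, which equals the p30 difference in GMPs less that in preGMs, called no member and 0.00502% of all genes by limma, with 1 member and 13.1% of all genes at an unadjusted p under 0.05. Hoxa9 had an estimate of 0.75 ± 0.24 (95% interval 0.23 to 1.28, adjusted p = 0.239), from a step of -1.13 in controls and -0.38 with p30. Hoxa5 had 0.52 ± 0.26 (-0.04 to 1.07, adjusted p = 0.406), with its GMP values below 6.03. Hoxa9 thus fell between the control stages and was not called between the p30 stages, but the steps were not shown to differ.

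Within GMPs, every array of either mutant lay below every fl/+ array for Hoxa5, Hoxa7 and Hoxa9, and no member was called. Hoxa9 read 6.33, 6.27 and 6.36 in GMP fl/BRM2, close to the p30 arrays and below the 6.69 to 6.96 of GMP fl/+. It differed from fl/+ by -0.42 with p30 (95% interval -0.79 to -0.05, adjusted p = 0.183) and by -0.48 with BRM2 (-0.85 to -0.11, 0.191). Hoxa5 read 5.42, 5.25 and 5.23 in GMP fl/BRM2 and differed by -0.43 with p30 (0.197) and by -0.38 with BRM2 (0.351). It lay below 6.03 on every GMP array, where differences are compressed. Hoxa7 read 6.58, 6.39 and 6.45 in GMP fl/+, 6.38, 6.14 and 6.35 in GMP fl/BRM2 and 6.18, 6.03 and 6.12 in GMP fl/p30. It differed by -0.36 with p30 (0.109) and by -0.18 with BRM2 (0.557). Those 3 genes were the members with no overlap in both comparisons, 3 of 9, where 8.27% of all genes lay lower without overlap with p30 and 8.51% with BRM2. By limma 6.06% of all genes were called with p30 and 2.53% with BRM2. At an unadjusted p under 0.05 there were 3 members and 20.0% of all genes with p30, and 1 member and 2985 of 19937 genes with BRM2, and both comparisons share the GMP fl/+ arrays. With array weights, which count uneven arrays for less, Hoxa9 (-0.65, adjusted p = 0.0129) and Hoxa7 (-0.41, adjusted p = 0.025) passed in the p30 comparison, but 20.4% of all genes then passed. The 2 mutants were not told apart at any member: Hoxa9 differed by 0.06 between p30 and BRM2 (95% interval -0.31 to 0.43) and Hoxa5 by -0.05 (-0.44 to 0.34). Between them limma called 0.00502% of all genes, and at an unadjusted p under 0.05 there were 0 members and 3.45% of all genes. Hoxa3, higher with p30 by an uncalled 0.13, was the only member without overlap, as were 4.67% of all genes in that direction. Against GMP fl/+, erythroid markers had 3 of 6 called higher with p30 and 3 of 6 with BRM2. Secondary granule and neutrophil markers had 4 of 7 called lower with p30 and 1 of 7 with BRM2. The GMP arrays of each mutant also differed among themselves. The primary granule marker Elane read 6.47, 8.99 and 10.85 with p30 and 10.59, 7.35 and 9.56 with BRM2. Mean deviations of the primary granule and GMP markers ran from -0.84 to 1.03 with p30 and from -0.60 to 0.92 with BRM2. In GMP fl/+ they ran from 0.90 to 1.40. The part of such cells in the members' values was not tested.

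**Figure D3:**
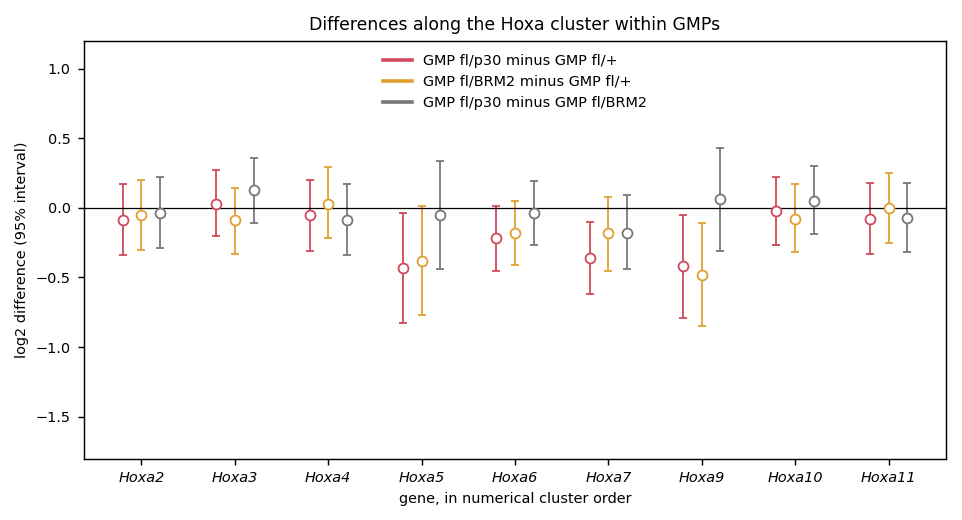
Log2 difference of each Hoxa gene among the 3 GMP groups, in cluster order, with limma estimates and 95% intervals; open points did not pass an adjusted p of 0.05. All points are open, and Hoxa5, Hoxa7 and Hoxa9 lie lowest in the comparisons with GMP fl/+.

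Across the groups, Hoxa9 had its highest mean in preGM +/+ (7.93 ± 0.28, SD, n = 3), followed by GMP fl/+ (6.80 ± 0.14), preGM fl/p30 (6.76 ± 0.31), GMP fl/p30 (6.38 ± 0.25) and GMP fl/BRM2 (6.32 ± 0.05). Only the first step in that order lay beyond the spread of the arrays. Hoxa5 ran from 6.89 ± 0.16 in preGM +/+ through 5.94 ± 0.46 in preGM fl/p30 and 5.68 ± 0.16 in GMP fl/+ to 5.30 ± 0.10 in GMP fl/BRM2 and 5.24 ± 0.16 in GMP fl/p30. Its mutant GMP arrays lay below GMP fl/+ without a call, and its other neighbours after the first step overlapped. Hoxa4, whose probe set was the only one above 6.23 on every array, stayed within 7.11 to 7.63.

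Likeness was described by Pearson correlation over the 15 arrays, which share the groups. Hoxa9 followed Hoxa5 most closely among members (r = 0.92, rank 4 of 19936 genes), then Hoxa6 (0.88), Hoxa10 (0.86) and Hoxa7 (0.84), while Hoxa11 had a negative value (-0.39). The median over the 36 pairs of members was 0.68, and it was 0.22 once group means were taken off. Hoxa10 then had the highest value of the members with Hoxa9 (0.59), and Hoxa5 had 0.30. Of all genes, those most like Hoxa9 were Hlf (0.94), Il31ra (0.93), Cep126 (0.93), Hoxa5 (0.92), Wfdc17 (0.91) and Olfr1160 (0.91). Those least like it were Cd63 (-0.90), Bcl2l10 (-0.89), Gpr141 (-0.89), Sytl1, Siglecf and Tuba8 (each -0.86). Hlf encodes a transcription factor of blood stem cells, and it kept a correlation of 0.66 with Hoxa9 after group means were removed. Cd63, Gpr141, Sytl1, Siglecf and Tuba8 then had -0.08 to 0.08, and Bcl2l10 had -0.52. The group means of Cep126, Olfr1160 and Bcl2l10 all lay below 6.03, the lowest array median.

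Meis1, the partner best known beside Hoxa9, was not called in p30 preGMs, and whether it differed less than Hoxa9 was not tested. Meis1 read 9.92, 9.50 and 9.86 in preGM +/+ and 8.69, 9.47 and 9.61 in preGM fl/p30, and the difference of -0.50 did not pass (95% interval -1.31 to 0.30, adjusted p = 0.589). Replicate 3 of the p30 preGMs lay within the range of the controls, replicate 2 just below it and replicate 1 further below. Between control stages Meis1 fell by 2.43 ± 0.38, a 5.40-fold lower level (adjusted p = 0.00224), to 7.22, 7.09 and 7.68 in GMP fl/+. With p30 its stage difference was -1.63 (adjusted p = 0.0779). Meis1 and Hoxa9 had a correlation of 0.72 over the arrays and 0.17 within groups. Of the 8 measured partners, Pbx2 rose by 0.48 in the control step, a call kept in 4 of 15 runs with 1 array left out (adjusted p up to 0.184), and apart from Meis1 and Pbx2 in that step no partner was called in any comparison. In p30 preGMs, 1 of the 8 had an unadjusted p under 0.05, where 2794 of 19937 genes did. Pknox1, another Pbx partner, differed there by -0.38 (adjusted p = 0.185).

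**Figure D4:**
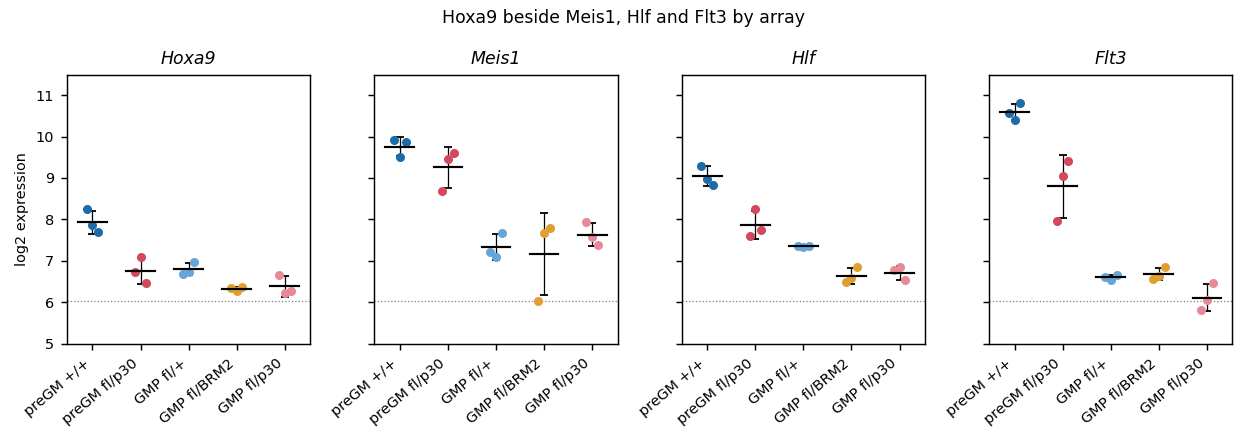
Log2 intensity of Hoxa9, Meis1, Hlf and Flt3 on every array, by group, with the mean as a black bar, the SD as an error bar and the lowest array median, 6.03, as a dotted line. Flt3 and Hlf are lower in the p30 preGMs than in the control preGMs, and Meis1 overlaps between them.

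A list of 18 genes linked to Hoxa9 and Meis1 in blood progenitors, all measured, had 4 called lower and none higher in p30 preGMs. Of all genes 1.03% were called lower there. Flt3, a receptor of early progenitors and a known target of Hoxa9 and Meis1, fell by 1.79 ± 0.28 (3.46-fold lower, adjusted p = 0.00462), and Hlf by 1.17 ± 0.17 (2.25-fold, 0.00285). Those 2 calls held with each array left out. Mef2c, a lymphoid and myeloid transcription factor, fell by 0.97 (0.0104), a call that ended without replicate 3 of the control preGMs or replicate 1 of the p30 preGMs (up to 0.0587). Trib1, a C/EBPα regulator, fell by 0.55 (0.0329, lost in 5 of 15 such runs, up to 0.158). Between control stages, where 10.2% of all genes were called, 7 of the 18 were lower and 1 higher. Flt3 differed by -3.99 (15.9-fold), Hlf by -1.69, Mef2c by -1.44, Cd34 by -1.03, and Gfi1, a transcriptional repressor of neutrophil formation, by 0.96. In the p30 step, where 0.642% of all genes were called, Flt3 (-2.70), Hlf (-1.15) and Mef2c (-1.08) were lower. The Mef2c call there was kept in 13 of 15 runs (up to 0.0517). None of the 18 was called for the difference between the steps, and Flt3 had an estimate of 1.30 (adjusted p = 0.214). At an unadjusted p under 0.05 there were 9 of the 18 and 13.1% of all genes. In GMPs with p30, Id2, which blocks DNA binding by partner factors, was higher by 2.73, Sox4 by 1.02 and Igf1r by 0.89 (kept in 12 of 15 runs), while Gfi1 (-0.82), Lmo2 (-0.80) and Hlf (-0.64, kept in 9 of 15) were lower. BRM2 gave 2 higher, Id2 (1.72) and Sox4 (0.91), and 2 lower, Hlf (-0.71) and Mef2c (-0.70). Id2 was kept in 5, Sox4 in 12, Hlf in 8 and Mef2c in 4 of the 15 runs. Over all genes 6.06% were called with p30 and 2.53% with BRM2. Across the alternatives the count called from this list in GMPs ran from 1 to 9 with p30 and from 0 to 7 with BRM2. It ran from 2 to 7 in the preGM comparison, 4 to 10 in the control step and 1 to 6 in the p30 step.

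Genes around the cluster, and the other Hox clusters, were not called in p30 preGMs. Of 27 measured genes of the Hoxb, Hoxc and Hoxd clusters, none was called in any of the 7 comparisons. In preGMs their differences ranged from -0.19 to 0.32, with 0 at an unadjusted p under 0.05. Most of these genes had group means below 6.03, the lowest array median, where differences are compressed. Small changes in them may therefore not be detectable, and the absence of calls does not show that these clusters stayed unchanged. In the control step 5 of 27 had an unadjusted p under 0.05, a smaller share than the 31.7% of all genes, and up to 4 passed under an alternative. Of the 7 measured neighbours at the Hoxa locus, none was called in preGMs, with 0 at an unadjusted p under 0.05. In the control step, where 10.2% of all genes were called, Hibadh (-1.07), Snx10 (-0.95) and Tax1bp1 (-0.45) were lower. Hibadh was kept in 10 and Tax1bp1 in 3 of 15 runs. In GMPs Tax1bp1 was higher with p30 by 0.66, and with BRM2 Snx10 by 0.80 (kept in 4 of 15) and Tax1bp1 by 0.56 (kept in 6). Across the alternatives the count of neighbours called ran from 0 to 4 in the control step and from 0 to 3 with either mutant in GMPs.

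The 22 measured Polycomb genes and 24 measured activating chromatin regulators also had no call in p30 preGMs, with 3 and 5 at an unadjusted p under 0.05, where 2794 of 19937 genes lay. Between control stages, where 10.2% of all genes were called, 5 Polycomb genes were lower and 2 higher. Bmi1, a core protein of the first repressive complex, was lower (-0.77, kept in 12 of 15 runs). So were Rbbp4 (-0.68, kept in 11), Phc1 (-0.67, kept in 11) and Cbx2 (-0.55, kept in 10). Ring1 (0.51, kept in 10) and Cbx7 (0.48, kept in 9) were higher. Of the activating regulators 4 were lower and 1 higher there, with Mllt3, an elongation factor often fused to the human KMT2A gene in leukaemia, at -0.92 (kept in 11) and Psip1, which tethers Kmt2a complexes, at -0.64 (kept in all 15). The higher one was Wdr5 (0.42, kept in 11). Across the alternatives the Polycomb count ran from 0 to 9, with 0 without preGM +/+ replicate 1 or 2, and the activating count from 0 to 11. RefSeq places antisense transcripts and a long Hoxa3 form across several members, and the strand and position of the probes were not known, so such overlap cannot be told apart from the members' own RNA.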

How the data were processed

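The deposited table gave log2 intensities of 34760 probe sets on 15 arrays; the authors made them with the affy package and RMA, per the submitters' processing notes, and neither their versions nor the genome build is given in the sources used here. RMA corrects background, equalises array distributions and summarises probes, so a difference shared by all genes is removed and low values are compressed. A probe set was named only where the platform annotation gave 1 symbol (21640), several (1321) or none (11799) being left out, and the probe set with the highest mean stood for a gene, which left 19937 genes. The 9 Hoxa genes had 1 probe set each. limma 3.58.1 in R 4.3.3 fitted 5 group means with a shared spread (10 residual and 4.24 prior degrees of freedom), and p-values were adjusted by Benjamini-Hochberg in each of 7 comparisons, with a call at an adjusted p under 0.05. Arrays number 3 per group, which limits precision. In a test on simulated data for the preGM comparison of 19937 genes, 23.9% of changes of 0.5, 85.1% of 1 and 100% of 2 on the log2 scale were recovered, with 7 false calls. The simulated noise was normal, independent between arrays and equal in all groups for a gene, as the model assumes. The real groups differed in spread (0.165 to 0.319) and the p30 samples were paired, so these figures hold for that setting only. The members, gene lists and tests were chosen with earlier results of these data known. Named genes were all members, up to 6 called genes of a list per comparison (up to 2 uncalled where none was), and the 6 most and 6 least like Hoxa9. The replicate arrays are separate animals by their titles. The p30 preGM and GMP arrays come from the same mice: their deviations correlated by 0.334, 0.32 and 0.116 within a mouse, so the animal was also fitted as a block. Alternatives are in the closing section.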

Additional observations from a re-analysis of the deposited data

How the results depend on the processing

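Each member was recomputed under up to 25 alternatives. No called value changed sign. In the preGM comparison 2 members were called, 1 to 2 with an array left out, 1 when an absolute log2 difference of at least 1 was also asked, and 1 without the 4 arrays that stood apart (chosen after seeing the data). In the control step 2 were called, 4 with the array medians made equal (Hoxa3 at 0.017 and Hoxa10 at 0.0253 joined, with 8.03% of all genes called), and 2 to 3 with an array left out. In the p30 step 0 were called, 2 with array weights (9.77% of all genes against 0.642%) and 0 to 1 with an array left out. With the mouse as a random block, for the pairing of the p30 samples, 1 was called in that step, Hoxa5 (0.0239), and the block changed no other call. In GMP fl/p30 against GMP fl/+ 0 were called, and 2 with array weights, under which 20.4% of all genes passed against 6.06%. Why these counts moved was not tested. Hoxa2, Hoxa3, Hoxa10 and Hoxa11 lay below 6.03 on every array, and a filter on dim probe sets left 11700 genes and 5 members, so small changes in the other 4 may not be detectable. Hoxa5, which the filter kept, lay below 6.03 on every GMP array, so small differences among GMPs may be missed in it too.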

Other observations

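Several chromatin regulators that keep Hox genes on or off were called in p30 GMPs, where 6.06% of all genes were called. Among the 24 measured activating regulators, 4 were higher than in GMP fl/+ and 1 lower: Aff4, of the super elongation complex, rose by 1.17 ± 0.23 (limma, adjusted p = 0.00752), Mllt3 by 1.03 (0.0152), Kat6a, a histone acetyltransferase, by 0.64 (0.0368) and Psip1 by 0.53 (0.0158), and Brpf1 fell by 0.65 (0.0393). Among 22 measured Polycomb genes 3 were higher and none lower: Bmi1 by 1.02 ± 0.18 (0.00427), Phc1 by 0.74 (0.0286) and Jarid2 by 0.51 (0.0255). These calls rest on the spread shared by all 5 groups: with only the arrays of the 2 groups compared, none of either list passed and 172 of 19937 genes did, against 1209, while array weights gave 11 activating and 9 Polycomb genes. Aff4 and Bmi1 kept their calls with each array left out, while Kat6a and Brpf1 kept theirs in 7, Jarid2 in 11, Mllt3 and Phc1 in 12 and Psip1 in 13 of 15 such runs. With BRM2 limma called no gene of either list, and 7 activating and 5 Polycomb genes had an unadjusted p under 0.05, where 2985 of 19937 genes did. Cell type markers also differed between these GMP groups, and their part in the calls of regulators was not tested.

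Mir196b, a microRNA gene between Hoxa9 and Hoxa10 that was picked out after its values were seen, read 5.87, 6.13 and 5.91 in preGM +/+ and 5.70, 5.81 and 5.58 in preGM fl/p30, a difference of -0.27 that did not pass (limma, adjusted p = 0.353).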
